A study of Mus musculus with 8 samples.

Results

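The genes described here encode the chromatin machinery that works beside, or against, the enzyme deleted in this study. They comprise 44 genes chosen by role from the gene symbols of the deposited comparison: 19 subunits of Polycomb repressive complex 1 (PRC1), 5 histone demethylases, 8 H3K4 methyltransferases and their shared subunits, 7 genes of DNA methylation and its removal, 3 subunits of the SWI/SNF chromatin remodeller and 2 of the deubiquitinase PR-DUB. All 44 were found among the 27179 genes counted and all passed the filter on low counts, which left 16658 genes for testing. RNA-seq was performed on the whole uterus of mice at postnatal day 10 (PD10), with 4 control libraries (Ctrl, genotype *Ezh2* f/f) and 4 conditional knockout libraries (cKO, genotype *Ezh2* f/f; Acre). Both groups carry the floxed *Ezh2* alleles on a mixed C57BL/6/129SvEv background, and only the cKO mice carry Cre recombinase expressed from *Amhr2*, which is active in mesenchymal cells of the developing uterus such as the stroma. Epithelium, vessels and immune cells of the same uterus are in every library, and this Cre is not known to act in them, so a change limited to mesenchyme would be diluted in these values. In whole tissue, fewer cells of a type and less RNA per cell cannot be told apart.

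EZH2 is the catalytic subunit of Polycomb repressive complex 2 (PRC2), which methylates lysine 27 of histone H3. PRC1 reads that mark through its CBX proteins and adds ubiquitin to histone H2A through its RING proteins, and the PCGF subunit sets which form of PRC1 is assembled. The trithorax-related H3K4 methyltransferases, SWI/SNF and the H3K27 demethylases keep genes active against Polycomb, whereas the DNMT and TET enzymes write and oxidise DNA methylation. The comparison asked whether the transcript levels of these partners and opponents differed between uteri with and without the *Ezh2* deletion.

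Between 25287141 and 36685807 reads per library were counted on genes. *Ezh2* itself had 49.5, 40.5, 54.7 and 35.4 CPM (reads scaled to a common library size) in Ctrl replicates 1 to 4 and 30.4, 38, 40.7 and 38 CPM in the cKO replicates (log2 fold change -0.29, adjusted p = 0.247 in edgeR's quasi-likelihood test with Benjamini-Hochberg adjustment over all genes tested). The groups overlapped, and because the count covers the whole gene, including the exons that Cre leaves in place, this value alone does not check the labels. Markers of epithelium, smooth muscle, endothelium and stroma were detected in every library, with 0 of 8, 0 of 7, 0 of 6 and 3 of 8 called between genotypes (*Col3a1* higher, *Hoxa10* and *Hoxa11* lower in cKO). All 7 NK cell markers tested were lower in cKO. The summed level of 7 fat cell markers, 6 of them tested (*Lep* was under the filter), was 2 to 4.1 CPM in the Ctrl libraries. In cKO replicates 1 to 3 it was 86.6, 205.6 and 92.5 CPM, but in cKO replicate 4 it was 4.03 CPM. Of the 6 markers tested, *Adrb3* (2.1 CPM, Ctrl at most 1.18 CPM) and *Fabp4* (1.61 CPM, Ctrl at most 1.43 CPM) were above the Ctrl range in cKO replicate 4 as well. Results on the members are given below with and without that library.

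Of the 44 genes, 1 was called at an adjusted p under 0.05, or 2.27%, where 5.34% of all genes tested were called. That gene was *Bmi1*, which was higher in cKO (2.62% of all genes tested were called higher and 2.71% lower). None of the 44 passed the study's own criterion of a 2-fold change together with an adjusted p under 0.05, which 1.3% of all genes tested passed. At an unadjusted p under 0.05, 4 members passed in edgeR (*Bmi1*, *Rybp*, *Setd1a* and *Cbx7*), 4 in DESeq2 and 3 in limma-voom. Of all genes tested, 21.2% passed in edgeR, 20.9% in DESeq2 and 21% in limma-voom. The members had 21 estimates above 0 and 23 below 0, and their median log2 fold change was -0.01 against 0 over all genes. Their median absolute log2 fold change was 0.07, and that of all genes was 0.12. The members were also higher in level, with a median of 92.2 CPM against 23.7 CPM over all genes. Low counts give noisier estimates, so these absolute values do not compare genes of like level.

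**Figure D1:**
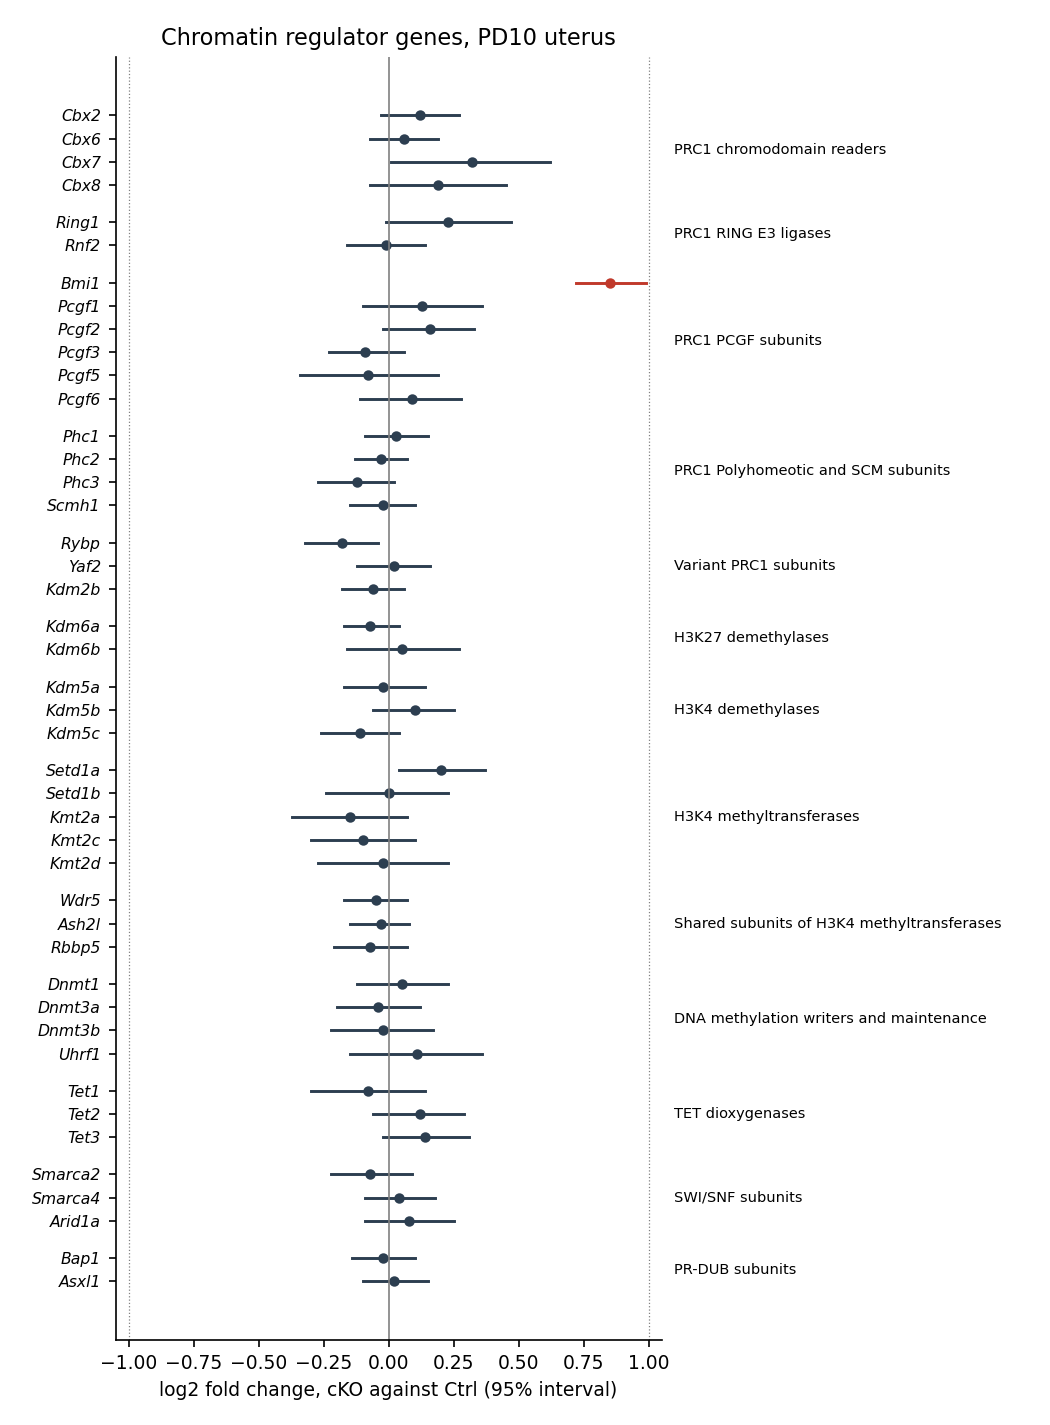
Log2 fold change of cKO against Ctrl for the 44 genes, grouped by role; points are edgeR estimates and bars their 95% intervals, and the dotted lines mark a 2-fold change. *Bmi1* (red, 0.85) was the one gene with an adjusted p under 0.05, and the other 43 estimates lay between -0.18 (*Rybp*) and 0.32 (*Cbx7*).

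The PCGF proteins pair with a RING E3 ligase and define the forms of PRC1, and *Bmi1* encodes PCGF4, a PCGF protein of canonical PRC1 best known for repressing the Ink4a/Arf locus and sustaining stem cells. The gene lies on the plus strand of chromosome 2 (chr2:18677018-18686629, GRCm38, Entrez gene 12151). Its promoter is printed because it belongs to the one member called with all 8 libraries. The window, taken from RefSeq for GRCm38.p6, covers 250 bases before and 50 bases after the annotated start on the plus strand (chr2:18676768-18677067), and the capitals mark the E-box letters CACGTG.
Bmi1 promoter: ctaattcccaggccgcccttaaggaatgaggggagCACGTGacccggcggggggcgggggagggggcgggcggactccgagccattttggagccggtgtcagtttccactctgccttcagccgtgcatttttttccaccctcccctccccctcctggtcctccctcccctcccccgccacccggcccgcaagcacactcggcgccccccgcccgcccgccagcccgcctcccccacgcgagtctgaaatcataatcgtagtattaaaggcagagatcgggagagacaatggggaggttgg
The window holds 23 CpG dinucleotides, a number reached by 21.5% of the 32851 promoter windows of that length. The letters CACGTG, which read the same on both strands, occur once, with 209 bases between them and the start. They were found in 18% of the 50 windows of the 36 members that matched the promoter table (*Bap1*, *Bmi1*, *Cbx6*, *Cbx8*, *Dnmt3a*, *Kdm6a*, *Pcgf2*, *Phc2* and *Phc3*) and in 7.15% of all windows. The windows of the members held a median of 25.5 CpG dinucleotides, against 7 over all windows, so the *Bmi1* window was not unusual among the members in its CpG number. The letters CACGTG hold a CpG themselves, so their shares do not compare windows of like CpG number. A letter match is a description of the window and not a measured binding site.

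*Bmi1* had 67, 62.1, 64.3 and 65.9 CPM in Ctrl replicates 1 to 4. In cKO replicates 1 to 4 it had 103.7, 123.7, 121.5 and 119.1 CPM. The groups did not overlap, and the lowest cKO library stood far above the highest Ctrl library. The Ctrl mean was 64.8 ± 2.11 CPM and the cKO mean 117 ± 9.06 CPM (SD, n = 4 for both). The log2 fold change was 0.85 with an SE of 0.06 and a 95% interval of 0.72 to 0.99, or 1.81-fold (1.64 to 1.99). Its adjusted p was 1.48e-05 in edgeR, the 8th smallest p-value of the 16658 genes. An exact two-sided permutation test on log2(CPM + 0.1) gave p = 0.029, the smallest value that the 70 arrangements of 4 against 4 can give. *Bmi1* was 1 of 44 members whose groups did not overlap, where 12.3% of all genes tested had groups that did not overlap.

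The *Bmi1* values rest on 1605 to 3945 reads per library. *Bmi1* was about as high in cKO replicate 4, whose summed fat marker level was in the Ctrl range, as in cKO replicates 2 and 3. Without cKO replicate 4 its log2 fold change was 0.84 (adjusted p = 7.17e-05), and with a fat score as a covariate it was 0.87 (adjusted p = 0.00176), both from edgeR. Under every alternative tried it lay between 0.83 and 0.91. The genes beside it on chromosome 2 gave values of a different size. *Commd3*, whose end lies 786 bases upstream of *Bmi1*, had 63.2, 62.6, 68.1 and 65.7 CPM in Ctrl and 76, 74.2, 67.6 and 66.7 CPM in cKO (log2 fold change 0.13, 95% interval 0 to 0.26, adjusted p = 0.231 in edgeR). *Pip4k2a*, 155625 bases downstream, had a log2 fold change of 0.08 (adjusted p = 0.561 in edgeR). *Spag6*, the third neighbour tested within 200 kb, had 48 reads in all 8 libraries together, which is too few to say.

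**Figure D2:**
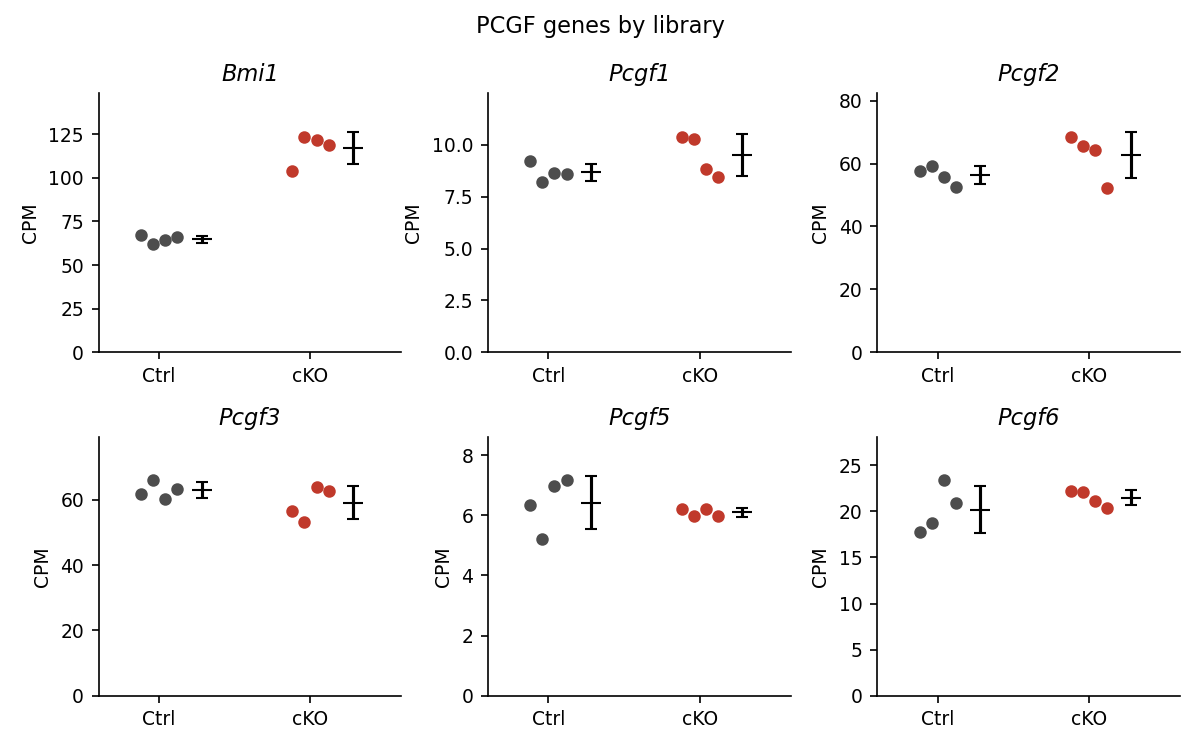
CPM of the 6 PCGF genes by library, with the mean and SD (n = 4 per group) beside the points; each vertical axis starts at 0. The 4 cKO libraries of *Bmi1* lie between 103.7 and 123.7 CPM, above every Ctrl library (62.1 to 67 CPM), and the groups overlap for the other 5 genes.

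The other 5 PCGF genes did not pass the test. Their log2 fold changes were 0.16 for *Pcgf2* (also called Mel18, the closest relative of *Bmi1*), 0.13 for *Pcgf1* and 0.09 for *Pcgf6*, which act in variant PRC1, and -0.09 for *Pcgf3* and -0.08 for *Pcgf5*, with adjusted p from 0.287 to 0.756 in edgeR. *Pcgf5* was the lowest of all 44 genes when CPM was divided by the length of its merged exons in kilobases, with 0.508 CPM per kb in Ctrl and 0.483 in cKO. It had 6.34, 5.22, 6.96 and 7.17 CPM in Ctrl and 6.21, 5.96, 6.22 and 5.99 CPM in cKO, and the cKO values lay inside the Ctrl range. Its merged exons span 12.6 kb over all annotated transcripts, so a gene read mostly from a shorter transcript is understated on this scale.

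On the same per-kilobase scale, *Bmi1* and *Pcgf2* were near each other in Ctrl, with 16.3 and 16 CPM per kb, and apart in cKO, with 29.4 and 17.8 CPM per kb. *Bmi1* was the 14th highest of the 44 genes in Ctrl and the 2nd highest in cKO, after *Cbx6*. *Bmi1* made up 34.2, 32.3, 33.2 and 34.5% of the summed PCGF level in the Ctrl libraries and 41.6, 46.8, 46.6 and 49.1% in the cKO libraries. Every cKO share was above every Ctrl share (33.5 ± 1.01% against 46.1 ± 3.16%, SD, n = 4 each, exact two-sided permutation p = 0.029). This separation rests on the *Bmi1* levels already given and is not a further result. The shares of *Pcgf1*, *Pcgf3*, *Pcgf5* and *Pcgf6* were lower in every cKO library than in any Ctrl library, and shares of a fixed whole must fall where one member rises. The summed level rose with *Bmi1*, from 48.7 ± 0.537 to 63.9 ± 2.52 CPM per kb, whereas without *Bmi1* it was 32.3 ± 0.587 in Ctrl and 34.5 ± 2.4 in cKO (SD, n = 4 each) with overlapping groups. In all, 35 shares in 11 families were compared by permutation, and the smallest p-value became 0.15 after Benjamini-Hochberg adjustment.

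**Figure D3:**
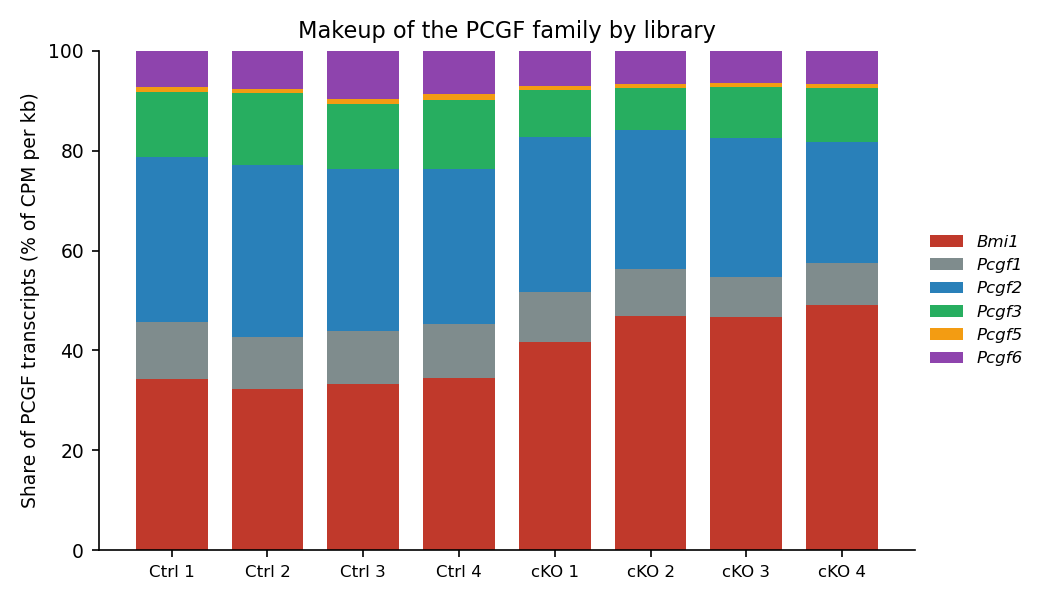
Makeup of the PCGF family in each library, as the percentage of the summed CPM per kb of merged exon taken by each gene. The *Bmi1* segment takes 32.3 to 34.5% of the bar in the Ctrl libraries and 41.6 to 49.1% in the cKO libraries.

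The CBX proteins carry the chromodomain that binds methylated lysine 27 of histone H3, the mark made by EZH2. All 4 listed readers had estimates above 0, and 0 of the 4 passed the test in edgeR (1, *Cbx7*, at an unadjusted p under 0.05). *Cbx7* had 20.9, 23, 22 and 18.6 CPM in Ctrl and 31.3, 30.9, 23.2 and 19.8 CPM in cKO. cKO replicates 1 and 2 stood above the Ctrl range, replicate 3 just above its upper end and replicate 4 within it. The log2 fold change was 0.32 with a 95% interval of 0.01 to 0.62 (adjusted p = 0.219 in edgeR), the widest interval of the 43 members that were not called. *Cbx6* had the highest level of all 44 genes per kilobase, 47.5 CPM per kb in Ctrl and 49.6 in cKO, and took 78.9 ± 1.26% of the summed level of the 4 readers in Ctrl and 77.4 ± 1.76% in cKO (SD, n = 4 each). It had 499.1, 539.8, 486.7 and 490.6 CPM in Ctrl and 553.4, 485.7, 515.8 and 548.4 CPM in cKO, with a log2 fold change of 0.06 (95% interval -0.07 to 0.19, adjusted p = 0.599 in edgeR). Its groups overlapped, and 5.31% of its exon length is shared with *Npcd* on the same strand, so some of its reads could be counted for either gene. *Cbx2* and *Cbx8*, which lie 5027 bases apart on chromosome 11, had log2 fold changes of 0.12 and 0.19 (adjusted p = 0.352 and 0.388 in edgeR).

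*Ring1* and *Rnf2* encode the E3 ligases that ubiquitinate histone H2A, RING1A and RING1B. *Ring1* had 16.2, 15.7, 14.8 and 14.6 CPM in Ctrl and 19.7, 20.4, 18.1 and 13.9 CPM in cKO. As with *Cbx7*, replicate 4 was the lowest cKO library, and here it was below the Ctrl range while the others were above it (log2 fold change 0.23, 95% interval -0.01 to 0.47, adjusted p = 0.259 in edgeR). *Rnf2*, the more abundant of the pair with 83.7 ± 1.08% of their summed level per kb in Ctrl (SD, n = 4), had 107, 92, 101.6 and 101.1 CPM in Ctrl and 89.9, 96.1, 110.1 and 103 CPM in cKO. Its groups overlapped almost fully, with a log2 fold change of -0.01 and a 95% interval of -0.16 to 0.14 (adjusted p = 0.957 in edgeR). The sign of so small a value changed with the scaling, to 0.01 with upper-quartile factors.

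The Polyhomeotic proteins and SCMH1 join PRC1 into larger assemblies through their SAM domains, and 0 of these 4 genes passed the test or an unadjusted p under 0.05 in edgeR. *Phc3* had 106.7, 126, 103.2 and 110.2 CPM in Ctrl and 98, 100.3, 105.4 and 105.6 CPM in cKO. Its groups overlapped (log2 fold change -0.12, 95% interval -0.27 to 0.02, adjusted p = 0.3 in edgeR). *Phc1*, *Phc2* and *Scmh1* had log2 fold changes of 0.03, -0.03 and -0.02. In variant PRC1 the CBX subunit is replaced by RYBP or its relative YAF2, and KDM2B brings the complex to unmethylated CpG islands. *Rybp* had 63.7, 61.3, 56.2 and 63.7 CPM in Ctrl and 52.1, 50.5, 54.8 and 58.5 CPM in cKO. cKO replicates 1 to 3 lay below the lowest Ctrl library and cKO replicate 4 above it, with a log2 fold change of -0.18 (95% interval -0.32 to -0.04, adjusted p = 0.128 in edgeR). *Yaf2* and *Kdm2b* had log2 fold changes of 0.02 and -0.06 (adjusted p = 0.894 and 0.58 in edgeR).

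*Kdm6a* (UTX) and *Kdm6b* (JMJD3) encode the demethylases that remove the methyl groups EZH2 adds to lysine 27 of histone H3. *Kdm6a* had 104.6, 110.3, 103.9 and 107.8 CPM in Ctrl and 100, 101, 105.2 and 101.3 CPM in cKO, with a log2 fold change of -0.07 (95% interval -0.17 to 0.04, adjusted p = 0.468 in edgeR). *Kdm6b* had 118.9, 150.9, 108 and 120.8 CPM in Ctrl and 126.2, 125.1, 146.1 and 119.7 CPM in cKO, with a log2 fold change of 0.05 (95% interval -0.16 to 0.27, adjusted p = 0.792 in edgeR). The groups of both genes overlapped, and both intervals lay inside a 1.25-fold change in either direction. The H3K4 demethylases *Kdm5a*, *Kdm5b* and *Kdm5c*, which remove a mark of active promoters, gave 0 calls of 3 (0 at an unadjusted p under 0.05) in edgeR. *Kdm5c*, an X-linked member, had 158.7, 177.7, 153.2 and 166.4 CPM in Ctrl and 160.7, 138.2, 144.1 and 165.5 CPM in cKO. cKO replicates 2 and 3 were below the Ctrl range and the other cKO libraries inside it (log2 fold change -0.11, 95% interval -0.26 to 0.04, adjusted p = 0.402 in edgeR). *Kdm5a* and *Kdm5b* had log2 fold changes of -0.02 and 0.1.

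Among the H3K4 methyltransferases, SETD1A and SETD1B make most of the trimethylation at promoters, MLL1 (*Kmt2a*) acts at Hox and other developmental genes, and MLL3 and MLL4 (*Kmt2c* and *Kmt2d*) act at enhancers. None of the 5 passed the test, and 1 of them, *Setd1a*, had an unadjusted p under 0.05 in edgeR. *Setd1a* had 72.3, 76, 72.4 and 71.1 CPM in Ctrl and 88.2, 89.7, 88.5 and 69.4 CPM in cKO. cKO replicates 1 to 3 lay close together above the Ctrl range and replicate 4 below it, giving a log2 fold change of 0.2 (95% interval 0.04 to 0.37, adjusted p = 0.152 in edgeR). A predicted gene on the same strand, *Gm49388*, covers 51.8% of the exon length of *Setd1a*, so its reads are uncertain. *Setd1b*, *Kmt2a*, *Kmt2c* and *Kmt2d* had log2 fold changes of 0, -0.15, -0.1 and -0.02 (adjusted p from 0.418 to 0.992 in edgeR). *Wdr5*, *Ash2l* and *Rbbp5* encode the core that these enzymes share, and 0 of the 3 were called (0 at an unadjusted p under 0.05) in edgeR. *Rbbp5* had 52.4, 52.6, 45.9 and 48.5 CPM in Ctrl and 50, 46.7, 45.7 and 47.6 CPM in cKO, overlapping, with a log2 fold change of -0.07 (95% interval -0.21 to 0.07, adjusted p = 0.554 in edgeR).

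DNMT1 copies DNA methylation after replication, guided by UHRF1, and DNMT3A and DNMT3B add it to new sites. *Dnmt1* had 145.1, 146.2, 157.2 and 185.3 CPM in Ctrl and 170.1, 148.9, 164.7 and 175 CPM in cKO (log2 fold change 0.05, 95% interval -0.12 to 0.23, adjusted p = 0.738 in edgeR). *Uhrf1* had 96.3, 72.7, 103.4 and 117.1 CPM in Ctrl and 107.7, 103.9, 100.5 and 108.1 CPM in cKO. All 4 cKO values lay inside the Ctrl range, which Ctrl replicate 2 extended downwards. The log2 fold change was 0.11 with all libraries (95% interval -0.15 to 0.36, adjusted p = 0.628) and -0.01 without Ctrl replicate 2 (adjusted p = 0.963), both in edgeR. The summed level of 17 S phase genes was also lowest in Ctrl replicate 2, at 1000.6 CPM against 1231.1 to 1437.6 CPM in the other Ctrl libraries, and its part in the *Uhrf1* value was not tested. None of those S phase genes was called between genotypes by edgeR. *Dnmt3a*, which had 237 CPM in Ctrl, and *Dnmt3b*, which had 12.8 CPM, had log2 fold changes of -0.04 and -0.02 (adjusted p = 0.808 and 0.911 in edgeR).

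The TET dioxygenases oxidise methylcytosine, the first step of its removal. *Tet1* had 81.3, 92, 81.6 and 94.5 CPM in Ctrl and 74.4, 70, 98.2 and 87.9 CPM in cKO (log2 fold change -0.08, 95% interval -0.3 to 0.14, adjusted p = 0.687 in edgeR). *Tet3* had 123.3, 140.7, 128.1 and 143.4 CPM in Ctrl and 135.6, 137.6, 168.6 and 149.5 CPM in cKO (log2 fold change 0.14, 95% interval -0.02 to 0.31, adjusted p = 0.307 in edgeR). The levels of both genes overlapped between groups, but their proportions within the family did not. *Tet3* took 49.1, 49.5, 50.6 and 50% of the summed TET level per kb in Ctrl and 51.9, 52.7, 52.8 and 52.9% in cKO. *Tet1* took 35.1 ± 0.367% in Ctrl and 31.6 ± 2.18% in cKO (SD, n = 4 each). The exact two-sided permutation p was 0.029 for each share and 0.15 after adjustment over the 35 shares, so neither passed the correction. *Tet2*, with a log2 fold change of 0.12, took 15.1 ± 0.791% and 15.8 ± 2.41%.

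SMARCA2 (BRM) and SMARCA4 (BRG1) are the alternative ATPases of SWI/SNF, and ARID1A is its DNA-binding subunit. *Arid1a* had 179.3, 228.2, 185.7 and 205.1 CPM in Ctrl and 215.4, 196.9, 227.3 and 202.3 CPM in cKO, with overlapping groups and a log2 fold change of 0.08 (95% interval -0.09 to 0.25, adjusted p = 0.606 in edgeR). *Smarca2* and *Smarca4* had log2 fold changes of -0.07 and 0.04 (adjusted p = 0.648 and 0.727 in edgeR). BAP1 removes the ubiquitin that PRC1 adds to histone H2A, with ASXL1 as its cofactor. *Asxl1* had 104.6, 110.4, 95.6 and 103.1 CPM in Ctrl and 102.9, 104.9, 111.9 and 100.6 CPM in cKO (log2 fold change 0.02, 95% interval -0.1 to 0.15, adjusted p = 0.857 in edgeR). *Bap1* had a log2 fold change of -0.02 (adjusted p = 0.861 in edgeR).

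The intervals limit how large a change could have gone uncalled. Of the 43 members that were not called, 33 had a 95% interval inside a 1.25-fold change in either direction, 42 inside a 1.5-fold change (*Cbx7* was the exception) and 43 inside a 2-fold change. Over all genes tested, with called genes included and without matching for level, these shares were 46.8%, 71.2% and 85.9%. The median SE of the log2 fold change was 0.07 for the members and 0.09 for all genes. The lowest raw count of a member in any library was 135 reads, for *Pcgf5*, so none of the 44 lay near the limit of detection, and the intervals cover the spread between these libraries and not protein levels or histone marks.

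cKO replicate 4 stood apart from the other cKO libraries across the genes tested, and the members showed this at a share near that of all genes. For 12.3% of all genes tested, cKO replicates 1 to 3 lay beyond the Ctrl range on one side and cKO replicate 4 did not, and this held for 6 of the 44 members (13.6%). For the other libraries the like pattern held for 1.81% (Ctrl replicate 1) to 6.92% (Ctrl replicate 2) of all genes tested. *Cbx7*, *Ring1*, *Pcgf2*, *Setd1a* and *Tet2* lay above the Ctrl range in cKO replicates 1 to 3 and *Rybp* below it. *Rybp* also showed the pattern for Ctrl replicate 3, as the other Ctrl libraries lay above every cKO library. *Pcgf2* had 57.6, 59.1, 55.9 and 52.6 CPM in Ctrl and 68.6, 65.7, 64.3 and 52.2 CPM in cKO. *Tet2* had 40.6, 44.6, 37.2 and 41.4 CPM in Ctrl and 45.6, 48.4, 44.9 and 38.5 CPM in cKO. In each of these genes cKO replicate 4 lay within the Ctrl range or less than 2 CPM below it.

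Without cKO replicate 4, edgeR called 6 of the 44 members (13.6%), where 10.7% of the 16549 genes then tested were called. *Setd1a* had a log2 fold change of 0.28 (adjusted p = 0.00673), *Ring1* of 0.33 (0.0268), *Pcgf2* of 0.23 (0.0308), *Cbx7* of 0.43 (0.0308) and *Rybp* of -0.23 (0.0472), besides *Bmi1*, and *Tet2* of 0.17 was not called (0.139). The 3 libraries that carried these values were also the 3 whose summed fat marker level was above the Ctrl range, while *Adrb3* and *Fabp4* were above it in all 4 cKO libraries. With a fat score as a covariate over all 8 libraries, *Setd1a*, *Ring1*, *Cbx7*, *Pcgf2* and *Tet2* had log2 fold changes of -0.06, -0.12, -0.11, -0.09 and -0.08 and so changed sign, *Rybp* had -0.05 and kept its sign, and only *Bmi1* was called of the 44 (0.678% of all genes tested were called). The score separates 3 cKO libraries from the rest, so it overlaps with genotype, and its part in these values cannot be told apart from that of genotype.

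**Figure D4:**
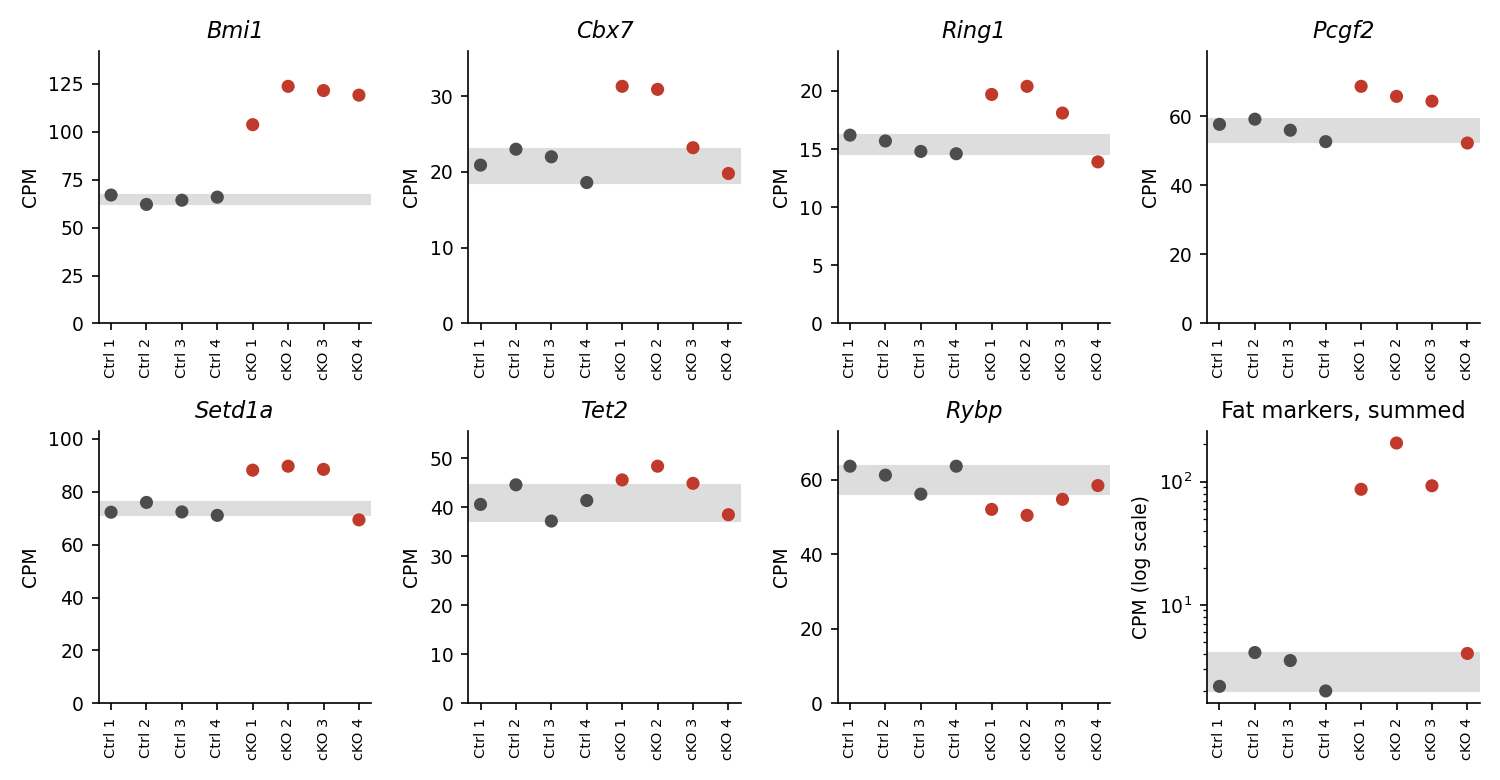
CPM of *Bmi1* and of the 6 genes in which cKO replicate 4 stood apart, by library, beside the summed CPM of 7 fat cell markers (log scale). The grey band is the Ctrl range. For *Bmi1* all 4 cKO libraries lie above the band, whereas for the 6 other genes cKO replicate 4 leaves the side taken by replicates 1 to 3, as it does for the summed fat markers (4.03 CPM against 86.6 to 205.6 CPM).

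A wider list of 72 genes of the same complexes and pathways was read in the same fit. Of the 71 that could be tested (*Actl6b* was under the filter), 4 were called, or 5.63%, beside 5.34% of all genes. *Scml4*, which encodes a relative of the SCM proteins, had 7.32, 8.08, 8.06 and 6.84 CPM in Ctrl and 4.23, 3.85, 4.37 and 4.87 CPM in cKO (log2 fold change -0.80, SE 0.12, adjusted p = 0.00218 in edgeR). The groups did not overlap, and every cKO library was below every Ctrl library.

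*Uhrf2*, a relative of *Uhrf1*, had 96.5, 95.8, 92.7 and 95 CPM in Ctrl and 77.6, 66.7, 62.3 and 85 CPM in cKO (log2 fold change -0.38, SE 0.08, adjusted p = 0.021 in edgeR). *Apobec1*, a cytidine deaminase known for editing RNA, had 16.2, 17.6, 17.8 and 16.2 CPM in Ctrl and 19.8, 21.7, 20.7 and 20.5 CPM in cKO (log2 fold change 0.29, SE 0.07, adjusted p = 0.0393 in edgeR). The groups of *Uhrf2* and of *Apobec1* did not overlap. The count of 4 became 1 without Ctrl replicate 1, cKO replicate 2 or cKO replicate 3, 2 without Ctrl replicate 3, Ctrl replicate 4 or cKO replicate 1, 10 without cKO replicate 4, and 0 with the fat score as a covariate. *Scml4* was called in every one of these fits that left out a library, with an adjusted p of at most 0.0104, and with the fat score as a covariate it was -0.67 (adjusted p = 0.163, edgeR). *Scml4* is also expressed in lymphocytes, and the NK cell markers, which summed to 13.2 to 21.4 CPM in Ctrl and 3.48 to 6.29 CPM in cKO, moved with it. Their part in the *Scml4* value was not tested.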

How the data were processed

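RNA was taken from whole mouse uteri at PD10 and made into 8 stranded mRNA libraries, 4 per genotype. The authors trimmed reads with Trimmomatic, checked them with FastQC, mapped them with HISAT2 (GRCm38) and assigned them to genes with featureCounts. The raw counts they deposited are listed by Entrez gene, library by library. The annotation release and strand setting of the counting are not given in the sources used here, so overlapping genes share uncertain reads. Of the authors' own comparison table (log2 fold change, log2 CPM, an F score, p-values and adjusted p-values) only the gene symbols were used, and a deposited table of normalized counts was not used.

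A gene entered the test with more than 0.2 CPM in 4 or more libraries, TMM factors were applied, and genotypes were compared with edgeR 4.0.16 (quasi-likelihood test, robust = TRUE) in R 4.3.3, with Benjamini-Hochberg adjustment over all 16658 genes. These settings follow the study's methods. A gene was called at an adjusted p under 0.05, and the count that also passed the study's 2-fold limit is given beside it. Totals of 25287141 to 36685807 counts per library put a count of 3 at 0.0824 to 0.117 CPM, which covers counting error only. Single values were also compared by an exact two-sided permutation test of log2(CPM + 0.1). For comparisons between genes, CPM were divided by the merged exon length of the GENCODE annotation of GRCm38. The alternatives were 3 other scalings, DESeq2 1.42.0, limma-voom (limma 3.58.1), robust = FALSE, 2 other filters, the replicate number as a block, a fat score (mean centred log2 CPM of 6 fat markers) as a covariate and leaving out each library. The procedure was tested on simulated counts with known changes. All 28 pairs of libraries differed by more than counting noise (chi-square per gene 7.8 to 31.8). The labels do not say that the libraries come from separate mice beyond their numbers, so p-values measure the spread between these libraries.

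The members, the wider list and the marker lists were chosen by role, with earlier results of these data known. Values in every library are given for each called member, the member with the smallest p-value in each role group, the highest and lowest gene per kb, and *Kdm6a*, *Kdm6b*, *Rnf2*, *Dnmt1* and *Tet1*. From the wider list the called genes are given, except 1 that is not reported here. *Pcgf2* and *Tet2* were added after their values were seen. The lists of red blood cell, skeletal muscle, ovary, oviduct, macrophage, T cell and G2 and mitosis genes had 0, 2, 0, 0, 0, 0 and 0 called genes in edgeR.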

Additional observations from a re-analysis of the deposited data

Results flagged for a closer look

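In 3 of the 88 groups of 4 libraries (44 genes in 2 genotypes), 1 library stood far from the other 3 by Dixon's criterion, and chance alone gives about 1 in 20. *Setd1a* had 69.4 CPM in cKO replicate 4 and 88.2 to 89.7 CPM in the other cKO libraries. *Kdm5b* had 162.3 CPM in cKO replicate 3 and 137.8 to 139.7 CPM in the others. *Wdr5* had 78.4 CPM in Ctrl replicate 2 and 84.1 to 84.9 CPM in the others.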

How the results depend on the processing

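*Bmi1* was the 1 member called in each of the 18 alternatives, except that 6 members were called without cKO replicate 4 (1 to 6 when leaving out each library). The count of genes in the wider list was 0 with the fat score and 1 to 10 when leaving out each library. Some uncalled members changed sign. With upper-quartile factors *Rnf2* was 0.01 (log2 fold change), and with the fat score *Cbx7*, the largest of the uncalled estimates, was -0.11, *Ring1* -0.12, *Kdm5c* 0 after rounding, *Setd1a* -0.06, *Asxl1* -0.03, *Kdm6b* -0.06, *Rnf2* 0.06 and *Tet1* 0.04. Over the fits that left out a library *Rnf2* ranged from -0.06 to 0.04, *Uhrf1* from -0.01 to 0.21, *Asxl1* from -0.01 to 0.06 and *Kdm6b* from -0.01 to 0.16. The cause of these shifts was not tested. The number of all genes called was 889, against 1510 with DESeq2, 113 with the fat score, 393 without Ctrl replicate 1, 452 without cKO replicate 1, 485 without cKO replicate 2, 523 without cKO replicate 3, 571 without Ctrl replicate 3 and 1773 without cKO replicate 4. No scaling moved the median log2 fold change of all genes by more than 0.02. Libraries of the same number deviated from their group means with correlations of 0.07, 0.16, -0.04 and 0.26 over 14456 genes, and 1 of 4 Ctrl and 2 of 4 cKO libraries correlated best with their own number, so the numbers were not taken as pairs. With the replicate block, 1240 genes and the same 1 member were called (*Bmi1* log2 fold change 0.85, adjusted p = 7.64e-06 in edgeR).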

Other observations

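*Ogt* and *Mbd6*, partners of PR-DUB on the wider list, were chosen after their values were seen because cKO replicates 1 and 2 stood apart in both. *Ogt*, which encodes the enzyme that adds N-acetylglucosamine to proteins, had 192.6, 174.8, 165.6 and 142.3 CPM in Ctrl and 249.2, 255.2, 141.4 and 155.1 CPM in cKO (log2 fold change 0.25, adjusted p = 0.538 in edgeR). *Mbd6*, which encodes a methyl-CpG-binding domain protein, had 50.8, 58.3, 48.9 and 50.2 CPM in Ctrl and 90.2, 87.4, 59.5 and 48.2 CPM in cKO (log2 fold change 0.45, adjusted p = 0.216 in edgeR). The same 2 libraries held the highest values of *Cbx7* and *Ring1*, and neither *Ogt* nor *Mbd6* was called between genotypes.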
